A study of Mus musculus with 12 samples.

Results

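The 10 transcription factor genes of effector and exhausted T cells followed here, in CD8+ T cells sorted from tumors, were Tox, Tox2, Eomes, Tbx21, Prdm1, Id2, Zeb2, Runx2, Runx3 and Maf. They were taken by symbol from a count table of 52636 mouse gene identifiers, and all 10 were found on 1 identifier each and had enough counts to be tested. The cells came from female A2AR eGFP reporter mice, 6 to 16 weeks old and on a C57BL/6 background, which carry the transgene Tg(Adora2a-EGFP)EP141Gsat. In this transgene the regulatory sequences of Adora2a, the gene of the adenosine receptor A2AR, drive eGFP from a bacterial artificial chromosome, so that GFP reports the activity of an added copy and not of the receptor protein itself. All mice had received 500000 cells of AT3ova, a mouse breast carcinoma line that expresses ovalbumin, under the skin. Anti-PD-L1, an antibody against the ligand of the inhibitory receptor PD-1, was given at days 14 and 18 to the treated mice, and the other mice were non-treated. At day 21 CD8+ tumor-infiltrating T cells were sorted into GFP+ and GFP- cells. This gave 4 conditions with 3 libraries each (non-treated GFP+ KT13, KT15 and KT17, non-treated GFP- KT14, KT16 and KT18, anti-PD-L1 GFP+ KT19, KT21 and KT23, and anti-PD-L1 GFP- KT20, KT22 and KT24), where every library holds the pooled cells of 3 mice. The question was whether these regulators differ with A2AR reporter activity and with checkpoint blockade.

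When a CD8+ T cell meets its antigen, transcription factors decide between short-lived effector, memory and exhausted fates. Tbx21 encodes T-bet and Eomes its T-box relative, which both drive cytotoxic genes, and T-bet works with Zeb2 in terminal effector cells. Id2 blocks the DNA binding of E proteins and favors effector over memory differentiation, Prdm1 encodes the repressor Blimp-1, which is high in effector and in exhausted cells, and Tox and Tox2 are HMG-box factors that establish and maintain the exhausted state under lasting antigen. Runx3 sets the identity of CD8+ T cells and their residency in tissue, Runx2 is its relative, best known from bone, and Maf encodes c-Maf, a leucine zipper factor found in T cells and macrophages.

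Values are counts per 1000000 counts (CPM) after TMM normalization, which scales each library for its depth and composition. QuantSeq reads only the 3′ end of a transcript. Total counts ranged from 11292699 to 19023900 per library. The lowest count of a member in a library was 28 for Tox2 and 30 for Zeb2, which corresponds to counting errors of 18.9% and 18.3%, whereas Id2 had at least 6109 counts in every library. Groups were compared over the 12 libraries with edgeR's quasi-likelihood test, and a gene was called at a Benjamini-Hochberg adjusted p under 0.05 over 14173 genes. KT13 and KT21 stood apart: their median rank correlation with the other libraries was 0.937 and 0.929, against 0.967 to 0.977 for the other 10. Calls of members, and the member values that moved most with these libraries, are therefore also given without KT13 and KT21, over 14747 genes. For its comparison of GFP+ with GFP- cells the paper's legends give fewer GFP+ than GFP- samples, without naming them. The sample set of the paper can thus differ from the 12 libraries used here. The codes alternate between GFP+ and GFP-, and whether neighboring codes came from the same mice is not given in the sources used here, so all comparisons were unpaired. Adora2a lay between 60.2 and 111 CPM in GFP+ libraries and between 19.7 and 34.6 CPM in GFP- libraries. The 10 CD8 T cell markers summed to 5320 to 8378 CPM in every library and none was absent. Sums over the markers of other cells, in lists of other lengths, were lower: 76.1 to 234 CPM for 5 NK cell genes, 85.2 to 299.9 CPM for 14 macrophage genes, 114 to 346 CPM for 3 genes of gamma delta T cells, 11.02 to 40.04 CPM for 6 dendritic cell genes, 7.41 to 26.1 CPM for 3 CD4 T cell genes, 2.53 to 7.13 CPM for 4 B cell genes, 0 to 3.37 CPM for 4 neutrophil genes, 9.55 to 24.5 CPM for 3 endothelial genes, 8.20 to 32.8 CPM for 5 epithelial genes and 0.428 to 64.3 CPM for 5 fibroblast genes. Single genes were not all lower. In anti-PD-L1 GFP- libraries the gamma delta gene Tcrg-C2 had 154.6 to 249.5 CPM, and Cd3e of the CD8 T cell markers had 202.9 to 245.4 CPM. In such bulk libraries, fewer cells that express a gene and less of its RNA per cell cannot be told apart.

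**Figure D1:**
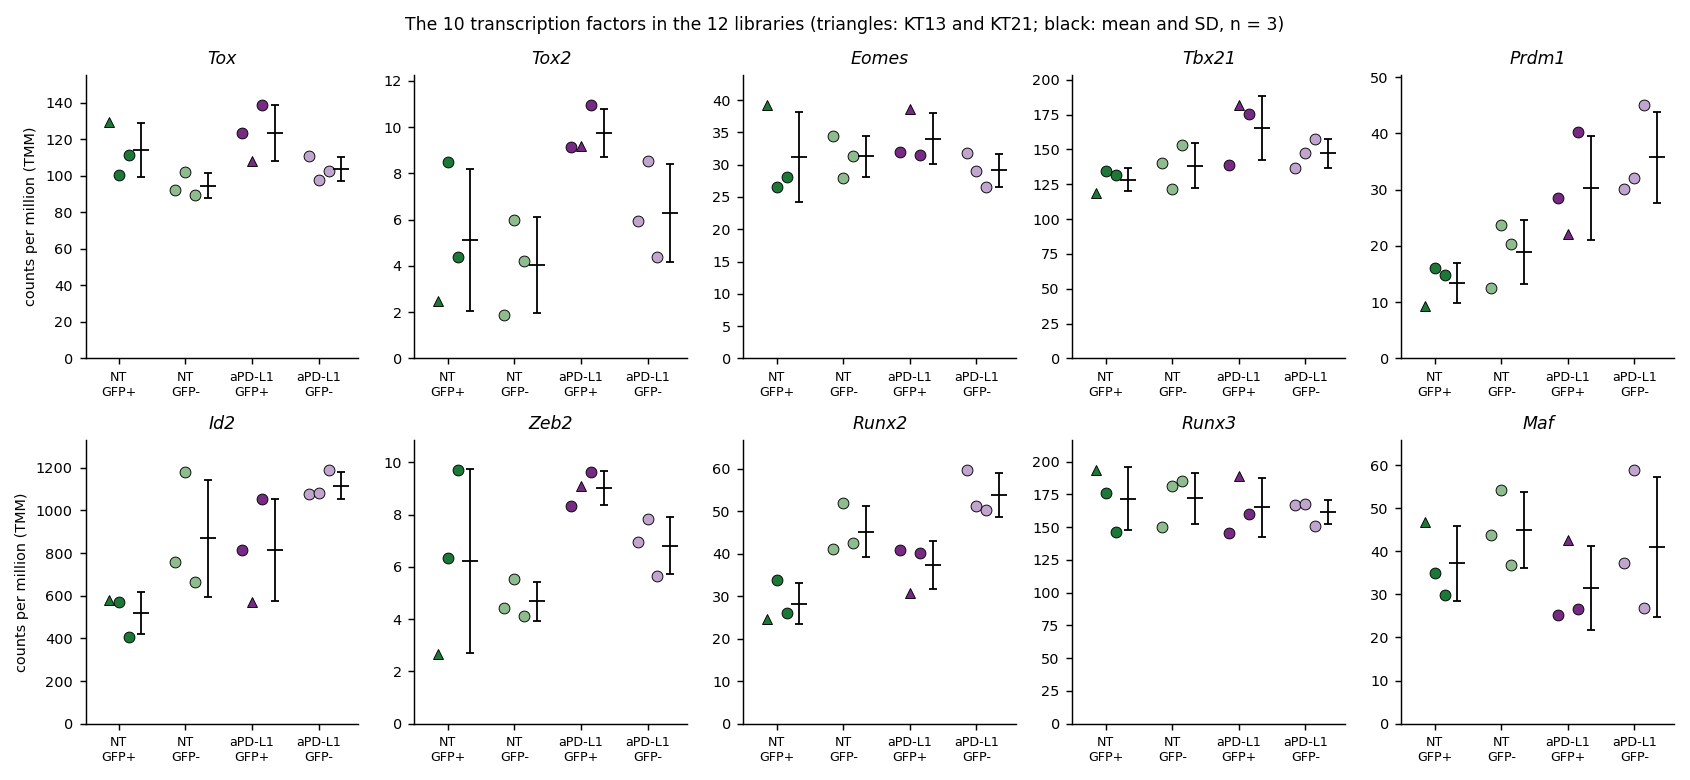
Normalized level of the 10 transcription factors in CPM (vertical axes, each from 0) in the 4 conditions (NT, non-treated; aPD-L1, anti-PD-L1), with 1 point per library, triangles for KT13 and KT21, and the mean and SD of 3 libraries in black. Prdm1 lay higher after anti-PD-L1 in both GFP groups, and Id2 and Runx2 lay lower in GFP+ than in GFP- libraries of the same treatment.

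Prdm1, which encodes Blimp-1, was the member with the largest response to anti-PD-L1. In non-treated GFP+ cells its level was 9.35 CPM in KT13, 16.1 CPM in KT15 and 14.8 CPM in KT17, and after anti-PD-L1 it was 28.5 CPM in KT19, 22.1 CPM in KT21 and 40.3 CPM in KT23. In non-treated GFP- cells it was 12.6 CPM in KT14, 23.7 CPM in KT16 and 20.3 CPM in KT18, and after anti-PD-L1 it was 30.2 CPM in KT20, 32.1 CPM in KT22 and 45.1 CPM in KT24. Every treated library thus lay above every non-treated library of the same GFP group, while the lowest treated GFP+ library, KT21, lay below the highest non-treated GFP- library, KT16. Averaged over the GFP groups, Prdm1 rose by a log2 fold change of 1.05 ± 0.21 (SE), or 2.06-fold, with an adjusted p of 0.0485 in edgeR's test. This was 1 of 10 members called, beside 56 of 14173 genes or 0.395% of all genes, and 4 of 10 had an unadjusted p under 0.05, beside 7.67%. It was also the 1 member of 10 whose libraries did not overlap in either GFP group, beside 1.59% of all genes. The call sat close to the threshold: it was kept without KT21 alone (adjusted p = 0.0116) and was lost when any of the other 11 libraries was left out, with adjusted p between 0.0601 and 0.154 and log2 fold changes between 0.92 and 1.18. Over all 12 libraries DESeq2 (adjusted p = 0.000557) and limma (adjusted p = 0.00766) called it too. Without both KT13 and KT21 the log2 fold change was 1.04 ± 0.17, with an adjusted p of 0.000879. Within GFP+ cells the log2 fold change was 1.17 ± 0.30 (adjusted p = 0.273) over all libraries and 1.16 ± 0.26 (adjusted p = 0.0437) without KT13 and KT21. In the GFP- groups the value was 0.92 ± 0.29 (adjusted p = 1), and 0.92 ± 0.21 (adjusted p = 0.0641) when the other groups lacked KT13 and KT21. Between GFP+ and GFP- cells Prdm1 was not called in this unpaired fit, with log2 fold changes of -0.49 ± 0.29 without treatment and -0.24 ± 0.29 after it, and adjusted p of 0.879 and 0.993. Both differences were nearer 0 without KT13 and KT21, at -0.29 ± 0.24 (adjusted p = 0.776) and -0.057 ± 0.234 (adjusted p = 1).

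Id2, the antagonist of E proteins, was lowest in non-treated GFP+ and highest in treated GFP- cells. Its levels in non-treated GFP+ cells were 582 CPM in KT13, 571 CPM in KT15 and 406 CPM in KT17, against 759 CPM in KT14, 1181 CPM in KT16 and 665 CPM in KT18 of non-treated GFP- cells. After anti-PD-L1, GFP+ cells had 816 CPM in KT19, 572 CPM in KT21 and 1052 CPM in KT23, and GFP- cells had 1075 CPM in KT20, 1083 CPM in KT22 and 1188 CPM in KT24. In both treatments all GFP+ libraries lay below all GFP- libraries, although KT23 of treated GFP+ cells came close to KT20. Averaged over treatments the log2 fold change of GFP+ against GFP- was -0.60 ± 0.17 (0.661-fold), with an adjusted p of 0.275 over 12 libraries. Without KT13 and KT21 it was -0.54 ± 0.13 with an adjusted p of 0.0308. Over all 12 libraries edgeR called it when no filter beyond 1 count was set (adjusted p = 0.00176), whereas DESeq2 and limma did not, so that this call depended on the libraries and on the filter. In non-treated cells alone the values were -0.74 ± 0.24 (adjusted p = 0.617) and, without the 2 libraries, -0.83 ± 0.18 (adjusted p = 0.0440), and with no filter beyond 1 count the adjusted p over 12 libraries was 0.0277. In anti-PD-L1 cells they were -0.46 ± 0.24 (adjusted p = 0.993) and -0.26 ± 0.18 (adjusted p = 0.991).

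The treatment difference of Id2 depended on the same libraries, on the filter and on the tool. In GFP+ cells its log2 fold change was 0.65 ± 0.24 (adjusted p = 0.592) over all libraries, where KT21 fell among the non-treated libraries. It was 0.94 ± 0.19 (adjusted p = 0.0182), or 1.91-fold, without KT13 and KT21, where the groups did not overlap. In GFP- cells the groups overlapped through KT16, and the log2 fold change was 0.36 ± 0.24 (adjusted p = 1). Averaged over GFP groups it was 0.50 ± 0.17 (adjusted p = 0.395), and 0.65 ± 0.12 (adjusted p = 0.00487) without the 2 libraries. Over all 12 libraries this averaged difference was called by limma with quality weights (0.67, adjusted p = 0.0265) and by edgeR with no filter beyond 1 count (0.51, adjusted p = 0.0196), but not by DESeq2 (0.50, adjusted p = 0.185). The interaction, which asks whether the treatment difference is larger in GFP+ cells, was 0.29 ± 0.34 over all libraries and 0.57 ± 0.25 without KT13 and KT21, and it was not called, with adjusted p of 0.9999 and 0.9998.

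Runx2 was lower in every GFP+ than in every GFP- library. Non-treated GFP+ cells had 24.7 CPM in KT13, 33.9 CPM in KT15 and 26.2 CPM in KT17, and non-treated GFP- cells had 41.1 CPM in KT14, 52.0 CPM in KT16 and 42.5 CPM in KT18. After anti-PD-L1 the levels were 41.0 CPM in KT19, 30.9 CPM in KT21 and 40.2 CPM in KT23 of GFP+ cells, and 59.7 CPM in KT20, 51.3 CPM in KT22 and 50.3 CPM in KT24 of GFP- cells. All 6 GFP+ libraries thus lay below all 6 GFP- libraries, narrowly so between KT19 and KT14, and within each treatment the gap was wider. The log2 fold change was -0.68 ± 0.18 (adjusted p = 0.478) in non-treated cells, -0.53 ± 0.18 (adjusted p = 0.993) in anti-PD-L1 cells, and -0.60 ± 0.13 (0.659-fold) averaged over treatments. The averaged adjusted p was 0.0761 over 12 libraries and 0.0346 without KT13 and KT21, where the log2 fold change was -0.50 ± 0.12. Over 12 libraries DESeq2 (adjusted p = 0.00526) and limma (adjusted p = 0.0201) called it, as did edgeR with no filter beyond 1 count (adjusted p = 0.0202). With anti-PD-L1, Runx2 gave log2 fold changes of 0.40 ± 0.18 (adjusted p = 0.725) for GFP+ and 0.25 ± 0.18 (adjusted p = 1) for GFP- cells, neither of them called, and 0.44 ± 0.18 and 0.25 ± 0.15 without KT13 and KT21, where the GFP+ groups no longer overlapped. Reads of Runx2 and of the antisense gene Runx2os1, which shares exonic sequence with it, cannot be told apart without strand, and the strand setting of the counting was not given in the sources used here. Runx2os1 had 1338 counts over the 12 libraries and Runx2 had 7448.

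The sequences before the annotated starts of the 3 members that differed most, Prdm1, Id2 and Runx2, are shown to place these genes in the genome, and that of Runx3 is shown as the relative of Runx2 whose level did not separate. They are the 250 bases before the RefSeq start in the build GRCm38.p6 (mm10), written 5′ to 3′ on the strand of the gene. Capitals mark matches to TGTGGT, the core sequence that RUNX proteins bind, or its reverse complement ACCACA.
Prdm1, chr10:44458749-44458998, minus strand: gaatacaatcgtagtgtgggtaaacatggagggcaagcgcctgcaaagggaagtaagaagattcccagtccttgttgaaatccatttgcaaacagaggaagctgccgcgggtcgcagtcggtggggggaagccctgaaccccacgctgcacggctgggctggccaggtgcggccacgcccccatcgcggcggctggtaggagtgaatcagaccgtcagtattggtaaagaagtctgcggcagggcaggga
Id2, chr12:25096093-25096342, minus strand: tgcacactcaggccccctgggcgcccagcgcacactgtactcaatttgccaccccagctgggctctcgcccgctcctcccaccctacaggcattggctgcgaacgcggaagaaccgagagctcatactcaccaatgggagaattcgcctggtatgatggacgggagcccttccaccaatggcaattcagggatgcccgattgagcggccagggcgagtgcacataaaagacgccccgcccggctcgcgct
Runx2, chr17:44814628-44814877, minus strand: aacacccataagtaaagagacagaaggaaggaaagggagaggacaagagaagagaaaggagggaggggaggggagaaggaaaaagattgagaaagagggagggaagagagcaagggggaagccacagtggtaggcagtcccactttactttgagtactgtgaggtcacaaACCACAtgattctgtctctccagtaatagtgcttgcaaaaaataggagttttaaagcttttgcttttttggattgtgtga
Runx3, chr4:135120395-135120644, plus strand: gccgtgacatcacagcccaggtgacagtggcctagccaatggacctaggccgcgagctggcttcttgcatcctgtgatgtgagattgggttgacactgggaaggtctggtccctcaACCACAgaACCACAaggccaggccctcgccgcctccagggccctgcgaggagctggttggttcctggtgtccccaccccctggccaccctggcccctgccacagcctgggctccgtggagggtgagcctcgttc
The window of Runx2 held 1 such match and that of Runx3 held 2, and neither Id2 nor Prdm1 held one. Of the 16 windows that RefSeq lists for 8 of the 10 members, 2 (12.5%) had a match, against 14.0% of all 32851 windows of this length. Tox and Maf were not among the 8. The matches are letters in these windows, and since 3′ reads do not show where a transcript starts, which start the cells used was not measured. The windows of Prdm1 and Id2 lie inside the spans that GENCODE gives these genes (chromosome 10, 44437177 to 44528501, and chromosome 12, 25093799 to 25097140), and that of Runx2 lies partly inside its span (chromosome 17, 44495987 to 44814797). The other motifs searched on both strands were the STAT motif TTCNNNGAA, in 2 of the 16 windows and 7.02% of all, the CRE TGACGTCA, in 0 and 1.55%, and the AP-1 motif TGANTCA, in 2 and 6.75%. Both STAT matches were in overlapping windows of Zeb2, and the AP-1 matches were in Prdm1 and Zeb2.

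**Figure D2:**
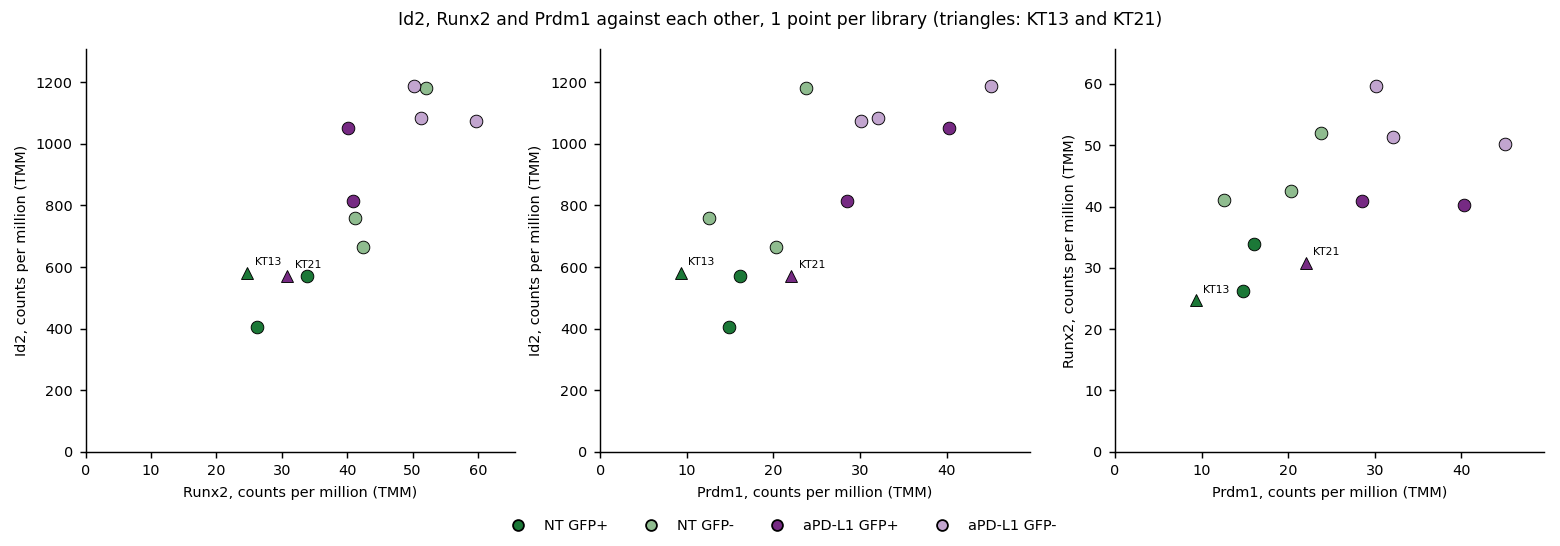
Levels of Id2, Runx2 and Prdm1 in CPM against each other, with 1 point per library, colored by condition, and triangles for KT13 and KT21. Libraries with more Runx2 also had more Id2 (r = 0.882 over 12 libraries), with non-treated GFP+ libraries at the low end and anti-PD-L1 GFP- libraries at the high end.

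Across libraries Id2 and Runx2 varied together more closely than any other pair of members. The correlation of log2(CPM + 0.5) was 0.899 over the 10 libraries without KT13 and KT21 and 0.882 over all 12. For Prdm1 and Id2 it was 0.770 and 0.746, and for Prdm1 and Runx2 it was 0.593 and 0.700. These coefficients describe libraries that share 4 conditions and their normalization, so the group differences enter them. Others depended on the 2 libraries: Tox and Zeb2 had 0.816 over 10 libraries and 0.240 over 12.

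Tbx21 and Eomes, the T-box pair, differed little between the conditions. Tbx21 had 119, 135 and 131 CPM in non-treated GFP+ libraries, 140, 121 and 153 CPM in non-treated GFP- libraries, 139, 182 and 175 CPM in anti-PD-L1 GFP+ libraries and 137, 147 and 157 CPM in anti-PD-L1 GFP- libraries, in the order of their codes. The treated libraries of both GFP groups lay above the non-treated GFP+ libraries, and all other pairs of conditions overlapped. The log2 fold change with anti-PD-L1 in GFP+ cells was 0.37 ± 0.15 (adjusted p = 0.688), and 0.24 ± 0.14 (adjusted p = 0.707) without KT13, the lowest, and KT21, the highest library of Tbx21. In GFP- cells it was 0.09 ± 0.15, and the interaction was 0.28 ± 0.22 (adjusted p = 0.9999). Eomes ranged only from 26.5 to 39.3 CPM over the 12 libraries, and its 2 highest values were those of KT13 (39.3 CPM) and KT21 (38.6 CPM). Its log2 fold changes ran from -0.10 to 0.22 over the simple comparisons and none was called. The 95% interval for treatment in GFP- cells ran from -0.50 to 0.30 and that for GFP in anti-PD-L1 cells from -0.18 to 0.62. When KT13 and KT21 were left out, the difference between GFP+ and GFP- in non-treated cells went from -0.00 to -0.20 ± 0.17 (adjusted p = 0.784), and those groups no longer overlapped.

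The mean of Tox was higher in GFP+ than in GFP- cells of each treatment. It had 130, 101 and 112 CPM in non-treated GFP+ libraries against 92.1, 102 and 89.4 CPM in non-treated GFP- libraries, and 123, 108 and 139 CPM against 111, 97.7 and 103 CPM after anti-PD-L1. One library of each GFP+ group reached down into the GFP- range. The averaged log2 fold change was 0.26 ± 0.11 (1.20-fold), with an adjusted p of 0.549, and 0.25 ± 0.09 (adjusted p = 0.274) without KT13 and KT21, and its direction held when any single library was left out. The log2 fold change of Tox with treatment was 0.12 ± 0.15 in GFP+ and 0.13 ± 0.15 in GFP- cells over 12 libraries, and 0.13 ± 0.11 averaged (adjusted p = 0.915). Without the 2 libraries, treated GFP+ cells lay above non-treated ones at a log2 fold change of 0.31 ± 0.14 (adjusted p = 0.553).

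Tox2, the relative of Tox, was measured at low counts. Its levels were 2.49, 8.48 and 4.38 CPM in non-treated GFP+ libraries, 1.87, 5.99 and 4.23 CPM in non-treated GFP- libraries, 9.15, 9.18 and 10.96 CPM in anti-PD-L1 GFP+ libraries and 5.93, 8.55 and 4.38 CPM in anti-PD-L1 GFP- libraries. Treated GFP+ cells held the 3 highest values of the 12 libraries, above both the non-treated GFP+ and the treated GFP- libraries. The log2 fold change with anti-PD-L1 in GFP+ cells was 0.92 ± 0.46 (adjusted p = 0.764), with a 95% interval from -0.07 to 1.91, and that of GFP+ against GFP- after anti-PD-L1 was 0.63 ± 0.46 (adjusted p = 0.993). The first was 0.64 ± 0.46 (adjusted p = 0.784) and the second 0.67 ± 0.41 (adjusted p = 0.987) without KT13 and KT21. Neither was called, and the spread among non-treated GFP+ libraries (59.8% of their mean) was larger than the counting error.

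Zeb2, which acts with T-bet, was also near the lower end of the measured range. Non-treated GFP+ libraries had 2.67, 6.33 and 9.70 CPM, non-treated GFP- libraries 4.43, 5.53 and 4.10 CPM, anti-PD-L1 GFP+ libraries 8.31, 9.10 and 9.63 CPM and anti-PD-L1 GFP- libraries 6.94, 7.84 and 5.66 CPM. KT13 alone lay below all the other libraries. Without KT13 and KT21 the GFP+ libraries lay above the GFP- libraries in both treatments, and the averaged log2 fold change was 0.58 ± 0.23 (adjusted p = 0.329), against 0.41 ± 0.26 (adjusted p = 0.723) over all 12. After anti-PD-L1 the GFP- libraries lay above the non-treated ones, at a log2 fold change of 0.54 ± 0.37 (adjusted p = 1). This separation was narrow, with 5.66 CPM in KT24 against 5.53 CPM in KT16. The treatment difference in GFP+ cells was 0.52 ± 0.37 over 12 libraries and 0.16 ± 0.35 without KT13 and KT21. The antisense gene Zeb2os, which overlaps its exons, had 105 counts over all libraries, against 1190 for Zeb2.

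For Maf, the mean was lower in GFP+ than in GFP- cells of each treatment. Its levels were 46.8, 35.0 and 30.0 CPM in non-treated GFP+ libraries, 43.7, 54.2 and 36.7 CPM in non-treated GFP- libraries, 25.2, 42.7 and 26.6 CPM in anti-PD-L1 GFP+ libraries and 37.3, 58.8 and 26.8 CPM in anti-PD-L1 GFP- libraries. KT13 and KT21 were the highest libraries of their conditions. Over all libraries the averaged log2 fold change of GFP+ against GFP- was -0.33 ± 0.20 (adjusted p = 0.714). Without them it was -0.57 ± 0.17 (0.675-fold), with an adjusted p of 0.127, and the groups did not overlap in either treatment.

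Runx3 was the steadiest member, with 146 to 193 CPM over the 12 libraries, a 1.33-fold range. Every pair of conditions overlapped, the log2 fold changes of the 4 simple comparisons lay between -0.09 and 0.03, and the sign of the difference between GFP+ and GFP- cells changed with the normalization. The 95% interval of the averaged difference ran from -0.23 to 0.26 for GFP and from -0.32 to 0.17 for treatment. The averaged difference for GFP was -0.089 ± 0.091 without KT13 and KT21. Runx2 and Runx3 thus gave different values for GFP, with averaged log2 fold changes of -0.60 and 0.01, although the difference between the genes was not tested.

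**Figure D3:**
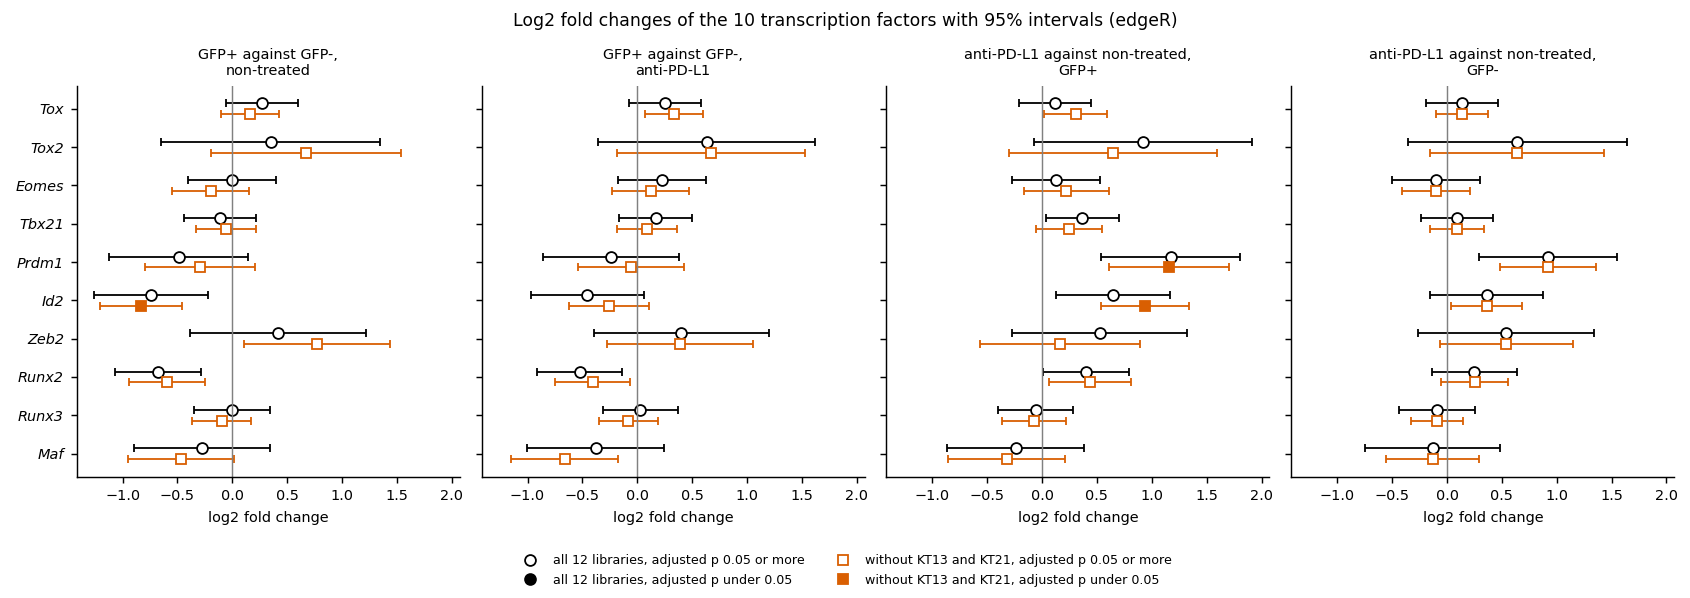
Log2 fold changes (horizontal axis) of the 10 members with 95% intervals in the 4 simple comparisons, over all 12 libraries (black circles) and without KT13 and KT21 (orange squares), filled where the adjusted p was under 0.05. Over 12 libraries no symbol is filled, and without the 2 libraries Id2 is filled for GFP in non-treated cells and Prdm1 and Id2 for treatment in GFP+ cells.

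By comparison, few members passed the test. For GFP+ against GFP- in non-treated cells 0 of 10 members were called by edgeR over 12 libraries (0.00706% of all genes), 2 of 10 had an unadjusted p under 0.05 (6.05% of all genes), and 0 were called by DESeq2 and 0 by limma. Members whose groups did not overlap were 2 of 10, Id2 and Runx2, both lower in GFP+ cells, against 12.8% of all genes. In anti-PD-L1 cells 0 of 10 were called by edgeR (0.0282% of all genes), DESeq2 and limma, and 1 had an unadjusted p under 0.05 (4.08%). There 4 of 10 did not overlap (10.6% of all genes), Tox2 and Zeb2 higher and Id2 and Runx2 lower in GFP+ cells. Averaged over treatments 0 of 10 were called by edgeR (0.31% of all genes) and 1, Runx2, by DESeq2 and by limma, with 3 at an unadjusted p under 0.05 (8.18%). The libraries of Id2 and Runx2 did not overlap in either treatment, as did those of 1.84% of all genes.

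Between treated and non-treated GFP+ cells 0 of 10 members were called by edgeR (0.0141% of all genes), 1, Prdm1, by DESeq2 and 0 by limma, and 4 had an unadjusted p under 0.05 (6.74% of all genes). Tox2, Tbx21 and Prdm1 did not overlap, all 3 higher after treatment, against 10.3% of all genes. In GFP- cells 0 of 10 were called by edgeR (0% of all genes), DESeq2 and limma, and 1 had an unadjusted p under 0.05 (3.44%). There Prdm1 and, narrowly, Zeb2 did not overlap, against 12.3% of all genes. After anti-PD-L1, 8 of 10 members had a log2 fold change above 0 in GFP+ cells with a median of 0.38, and 7 of 10 in GFP- cells with a median of 0.19, while the median of all genes was -0.01 in both. The interaction of GFP and treatment gave 0 of 10 members by edgeR (0% of all genes), DESeq2 and limma, and 0 with an unadjusted p under 0.05, against 2.08% of all genes. The 2 GFP comparisons and the 2 treatment comparisons use the same libraries, so their values are not separate evidence.

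Without KT13 and KT21 a larger share of all genes passed. In non-treated cells 1 of 10 members, Id2, was called for GFP (0.339% of all genes), with 3 at an unadjusted p under 0.05 (9.24%). In anti-PD-L1 cells 0 of 10 were called for GFP by edgeR (0.17%), with 3 at an unadjusted p under 0.05 (5.34%). For treatment, 2 of 10, Id2 and Prdm1, were called in GFP+ cells (0.563%), with 4 at an unadjusted p under 0.05 (8.54%), and 0 of 10 by edgeR in GFP- cells (0.373%), with 2 at an unadjusted p under 0.05 (7.22%). Averaged, Id2 and Runx2 were called for GFP (2 of 10, 1.08%), with 6 at an unadjusted p under 0.05 (10.3%), and Prdm1 and Id2 for treatment (2 of 10, 1.36%), with 5 at an unadjusted p under 0.05 (11.2%). The interaction gave 0 of 10 by edgeR (0%) and 1, Id2, at an unadjusted p under 0.05 (4.29%). Groups of 2 libraries separate more readily. Members that did not overlap were 5 of 10 for GFP in non-treated cells (25.2% of all genes), 6 of 10 for GFP after treatment (22%), 8 of 10 for treatment in GFP+ cells (39.1%) and 2 of 10 in GFP- cells (12.1%). In both treatments 4 of 10 members did not overlap for GFP (4.69%), and in both GFP groups 1 of 10, Prdm1, did not overlap for treatment (4.24%). KT13 lay outside the range of the other 10 libraries for 6 members and KT21 for 3. This count was not made over all genes, so whether it is particular to the members was not tested.

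The means of the 4 conditions ran in a similar order for several members. Anti-PD-L1 cells held the highest mean for 8 of 10 members, GFP+ cells for 5 (Tox, Tox2, Eomes, Tbx21 and Zeb2) and GFP- cells for 3 (Prdm1, Id2 and Runx2). The lowest mean was that of non-treated GFP+ cells for 4 members, Tbx21 among them, and of non-treated GFP- cells for 3, Tox, Tox2 and Zeb2. Of the 30 pairs of neighboring conditions in these orders, 3 did not overlap: treated GFP+ above treated GFP- cells for Tox2 and for Zeb2, and non-treated GFP- above treated GFP+ cells for Runx2. These 3 gaps were narrow. The nearest libraries had 9.15 against 8.55 CPM for Tox2, 8.31 against 7.84 CPM for Zeb2 and 41.1 against 41.0 CPM for Runx2. Over all genes, neither the share of such pairs nor the shares with the highest or lowest mean in each condition were computed. All other neighbors overlapped, so the full order of 4 conditions was not resolved for any member.

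Markers of other cells moved with the groups as well. The NK cell genes summed to 163 to 234 CPM in GFP+ and to 76.1 to 137 CPM in GFP- libraries, and 3 of these 5 genes, Klrb1c, Fcer1g and Tyrobp, were called higher in GFP+ cells averaged over treatments. Tyrobp was also called lower after anti-PD-L1 averaged over GFP groups (log2 fold change -0.71 ± 0.13, adjusted p = 0.0270). Ncr1, a defining NK cell receptor, lay at 3.29 to 6.65 CPM in non-treated GFP+ and at 3.65 to 5.84 CPM in non-treated GFP- libraries. After anti-PD-L1 it lay at 3.54 to 5.31 CPM in GFP+ and at 1.21 to 2.72 CPM in GFP- libraries, without overlap. The macrophage genes summed to 164 to 299.9 CPM in non-treated and to 85.2 to 184 CPM in anti-PD-L1 libraries, and of 13 tested 2 were called lower after treatment, Lyz2 (log2 fold change -1.50 ± 0.30, adjusted p = 0.0461) and C1qa (-1.001 ± 0.186, adjusted p = 0.0317). In GFP+ against GFP- cells averaged over treatments, 13 of these 13 genes had a log2 fold change above 0, with a median of 0.35, and 0 were called or had an unadjusted p under 0.05 in edgeR's test. Mrc1 was at 0 in all 3 anti-PD-L1 GFP+ libraries, but it was hardly detected elsewhere. Its mean was 0.12 CPM in non-treated GFP+, 0.64 CPM in non-treated GFP- and 0.20 CPM in anti-PD-L1 GFP- libraries. The CD8 T cell markers summed to 5320 to 5922 CPM in non-treated GFP+ libraries, below the 6313 to 8378 CPM of the other 9. With treatment, averaged over GFP groups, 10 of 10 CD8 T cell markers had a log2 fold change above 0 (median 0.25), with 0 called by edgeR and 4 at an unadjusted p under 0.05. For these macrophage and CD8 T cell counts above 0, the share of all genes above 0 is not given here. Prdm1 and Zeb2 had higher means in the treated cells, where these macrophage markers were lower, and Maf had lower ones. The fibroblast genes summed to 0.428 to 12.2 CPM in anti-PD-L1 libraries and to 4.35 to 64.3 CPM in non-treated libraries, so that these ranges overlapped. The part of these other cells in the levels of the members was not tested.

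**Figure D4:**
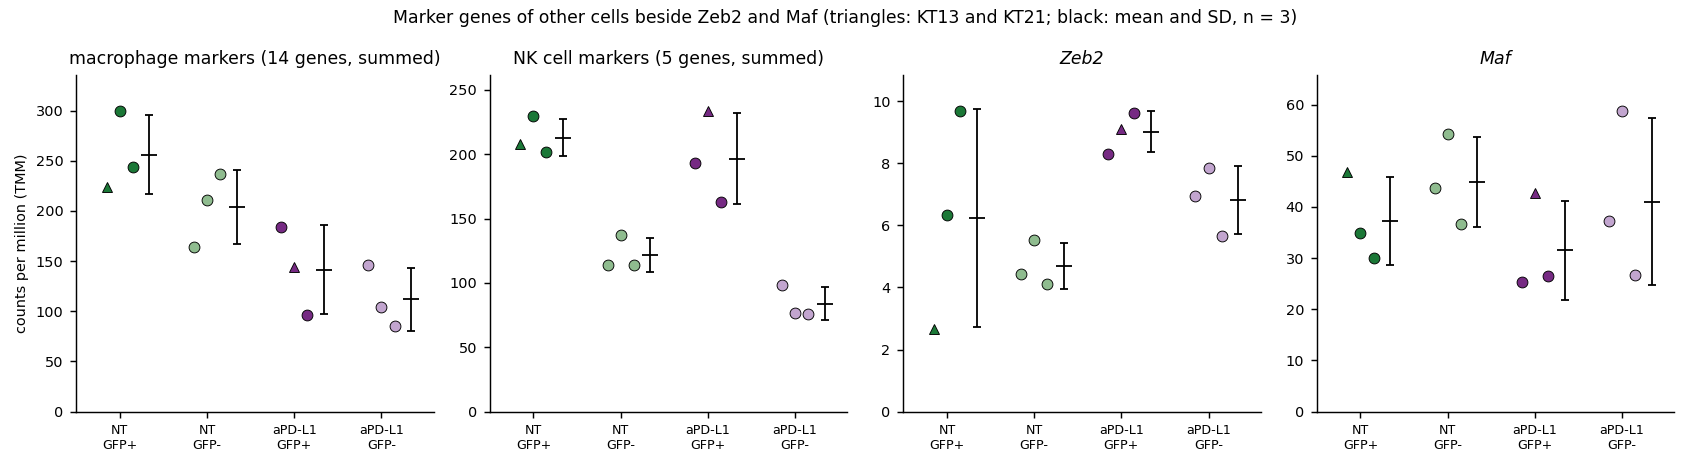
Summed CPM of 14 macrophage and 5 NK cell marker genes per library beside the CPM of Zeb2 and Maf (vertical axes from 0; triangles, KT13 and KT21; black, mean and SD of 3 libraries). Macrophage markers were lower after anti-PD-L1 and NK cell markers were higher in GFP+ cells, with 163 to 234 CPM against 76.1 to 137 CPM.

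Other transcription factors of CD8+ T cell differentiation gave a context of 31 genes, all of them tested. Averaged over treatments 1 was called higher in GFP+ cells, Ikzf2, which encodes Helios. It had 126 to 173 CPM in non-treated GFP+, 72.8 to 81.6 CPM in non-treated GFP-, 106 to 131 CPM in treated GFP+ and 50.05 to 65.72 CPM in treated GFP- libraries, a log2 fold change of 0.98 ± 0.12 with an adjusted p of 0.00348, and was called in each treatment alone without KT13 and KT21. With anti-PD-L1 1 of the 31 was called lower, Klf2, a factor of naive and recirculating T cells, at -0.96 ± 0.17 (adjusted p = 0.0239). Bcl6, the counterpart of Prdm1 in memory and follicular cells, lay at 10.4 to 17.9 CPM in GFP+ and at 6.27 to 9.48 CPM in GFP- libraries, without overlap, but with an averaged log2 fold change of 0.77 ± 0.20 and an adjusted p of 0.197 it was not called. Its means of 13.05 CPM in non-treated and 12.94 CPM in treated GFP+ libraries lay nearer the lowest than the highest library of each group. No value of Bcl6 without KT13 and KT21 is given here. The median of the 31 log2 fold changes was 0.07 for GFP and -0.03 for treatment, both averaged.

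Of 15 relatives and binding partners of the members 13 were tested, and 0 were called by edgeR for GFP or for treatment averaged, with 1 and 4 at an unadjusted p under 0.05. They include the E proteins that Id2 blocks (Tcf3, Tcf4 and Tcf12) and Cbfb, the partner of RUNX proteins. Id3, which antagonizes the same E proteins as Id2 and marks memory-like cells, had a treatment difference of the opposite sign to that of Id2. It lay at 35.7 to 51.0 CPM in non-treated GFP+ and at 9.10 to 32.9 CPM in treated GFP+ libraries, with a log2 fold change of -1.004 ± 0.370 (adjusted p = 0.584), and its averaged treatment difference of -0.80 ± 0.26 had an adjusted p of 0.372. The treated GFP+ libraries were widely spread, with an SD of 11.9 CPM around a mean of 20.5 CPM. These Id3 values are over all 12 libraries, and none without KT13 and KT21 is given here. Tox3 was at 0 in every library.

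Effector and exhaustion-associated genes, many of them known to be under the control of these factors, were looked at as lists. The lists and the separation of KT13 and KT21 were chosen with earlier results of these data known. The counts below, with the shares of all genes beside them, are therefore a description and not a test of the lists. Averaged over GFP groups, 4 of 17 effector genes were called higher after anti-PD-L1 (Prf1, Ccl3, Ccl5 and Gzma), with a median log2 fold change of 0.65 over the 17. Of all genes 0.395% were called in this comparison, in either direction. Prf1, which encodes perforin, gained 1.47 ± 0.15 on the log2 scale (adjusted p = 0.00210). In the same comparison 2 of 11 exhaustion-associated surface genes were called higher, Havcr2 (TIM-3) at 0.90 ± 0.14 (adjusted p = 0.00855) and Entpd1 (CD39) at 0.67 ± 0.11 (adjusted p = 0.0182), with a median of 0.47. Of 9 memory-associated and 7 residency genes 0 were called for treatment by edgeR, with 2 and 1 at an unadjusted p under 0.05. For GFP averaged, Gzma (granzyme A, -1.89 ± 0.25, adjusted p = 0.00511) and Il7r (the IL-7 receptor, -0.60 ± 0.09, adjusted p = 0.0131) were called lower in GFP+ cells, and 0 of 11 exhaustion-associated genes were called, with 3 at an unadjusted p under 0.05. The share of all genes called for GFP averaged was 0.31%. Without KT13 and KT21 the treatment calls were 11 of 17 effector and 6 of 11 exhaustion-associated genes, while the share of all genes called was 1.36%, against 0.395% over 12 libraries.

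The genes whose pattern was most like that of a member were sought among 5694 genes with a mean of at least 20 CPM, by Pearson correlation over the 10 libraries without KT13 and KT21. For Id2 they included Gm36723 (r = 0.962) and Golph3 (0.945). Gm36723 is a long noncoding RNA gene annotated on the same chromosome as Id2, 206.8 kb away (chromosome 12, 25303940 to 25471979, plus strand). For Runx2 they were Fgl2 (0.953), the adhesion receptor Cd44 (0.932) and Pmaip1 (0.928), and for Prdm1 they were Fam3c (0.956), Chp1 (0.938) and Tpst2 (0.937). Tbx21 was most like Higd1a (0.932), Lat2 (0.919) and the IL-21 receptor gene Il21r (0.909), and Tox most like Srgap3 (0.911), Prkch (0.906) and Serpinb6b (0.904). Tox2 came closest to Slc35e1 (0.937), Maf to Srsf7 (0.907), Eomes to Cul5 (0.903) and Runx3 to Atf1 (0.873). With 10 libraries in 4 conditions and so many genes searched, high coefficients are found for every member, and they are given as a description.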

How the data were processed

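The authors deposited raw counts of reads per gene for 12 QuantSeq 3′ libraries of sorted CD8+ tumor-infiltrating T cells. Single-end reads were trimmed with cutadapt, aligned to mm10 with HISAT2 and counted on genes with featureCounts of Subread. The submitters' processing notes give cutadapt 1.7 and Subread 1.6.4, whereas the paper's methods name other versions. The Ensembl release, the strand setting and the treatment of reads with several matches were not given in the sources used here. Symbols came from GENCODE vM21 and matched 52403 of 52636 identifiers. All 12 columns were used, and groups were taken from the sample titles.

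Counts were normalized by TMM and fitted in edgeR 4.0.16 (R 4.3.3) with the quasi-likelihood test, over the 4 conditions in 1 fit, after filterByExpr, which removed genes with low counts. P-values were adjusted by Benjamini-Hochberg over all genes tested and called under 0.05. Standard errors and 95% intervals come from the same fit. Averaged comparisons weight both levels of the other factor equally, and the interaction is the difference between the treatment effects in GFP+ and GFP- cells. CPM are TMM-normalized, and correlations used log2(CPM + 0.5). P-values measure the spread between pooled libraries, and reads without molecular identifiers are not independent molecules, so counting errors cover sampling only. No library was a copy of another. The fits were tested on simulated data.

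The members, the lists of other genes and markers, and the separation of KT13 and KT21 were chosen with earlier results of these data known. Named were all members, genes of the lists called or separating with the largest fold change, the genes most like each member, and Adora2a. Of the genes most like Id2 and Zeb2, 1 each is not reported here. Id3 and Tox3 of the relatives, and Ncr1 and Mrc1 of the markers, were named after their values were seen. The alternatives were DESeq2 1.42.0, limma 3.58.1 (voom with quality weights), RLE size factors, 10 counts in every library, no filter beyond 1 count, only the 2 conditions compared, no KT13 and KT21, and each library left out in turn. Promoter windows came from RefSeq.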

Additional observations from a re-analysis of the deposited data

How the results depend on the processing

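Over 12 libraries 1 of 70 differences of members was called, that of Prdm1 for treatment averaged. Leaving out single libraries gave 0 to 1 called members for that comparison, 0 in 11 of 12 fits, and 0 for the other comparisons. RLE size factors, a minimum of 10 counts in every library and a fit of only the 2 conditions compared changed no count of called members. Without KT13 and KT21 the counts became 1 for GFP in non-treated cells, 2 for treatment in GFP+ cells, 2 for GFP averaged and 2 for treatment averaged. With no filter beyond 1 count they were 1, 1, 2 and 2, DESeq2 gave 1 for treatment in GFP+ cells and 1 for GFP averaged, and limma gave 1 for GFP averaged and 2 for treatment averaged. The called members under these settings were Prdm1, Id2 and Runx2. The counts of all genes called were more sensitive. For GFP in non-treated and anti-PD-L1 cells, treatment in GFP+ and GFP- cells, GFP averaged and treatment averaged, they were 1, 4, 2, 0, 44 and 56 over 12 libraries, 50, 25, 83, 55, 159 and 201 without KT13 and KT21, 53, 38, 89, 33, 158 and 180 by DESeq2, 12, 20, 52, 34, 126 and 132 by limma, and 78, 49, 123, 60, 204 and 223 without the filter, which also gave 10 for the interaction against 0. Fits of only the 2 conditions compared gave 1, 0, 0 and 51 for the first 4. Why the filter and the tool move these counts was not tested.

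Signs changed only for differences that were not called. For GFP in non-treated cells Eomes and Runx3, both at -0.00 in log2, became 0.011 and 0.011 with RLE size factors, 0.0097 and 0.011 with DESeq2, 0.017 and 0.017 with 10 counts in every library and 0.0035 and 0.0037 with only the 2 conditions compared. Without KT13 and KT21 the values were -0.082 for Runx3 and GFP in anti-PD-L1 cells, -0.037 for Eomes and -0.089 for Runx3 for GFP averaged, and 0.17 for Tox in the interaction. With limma they were -0.059 and -0.093 for Runx3 (GFP in anti-PD-L1 cells and averaged) and 0.12 for Tox in the interaction. Leaving out single libraries gave ranges across 0 for GFP in non-treated cells for Tox2 (-0.22 to 0.75), Eomes (-0.20 to 0.10), Zeb2 (-0.050 to 0.77) and Runx3 (-0.10 to 0.10), and for GFP in anti-PD-L1 cells for Runx3 (-0.082 to 0.11). For treatment they did so for Runx3 in GFP+ cells (-0.17 to 0.037), Maf in GFP- cells (-0.49 to 0.10) and Eomes averaged (-0.041 to 0.11), and for GFP averaged for Tbx21 (-0.013 to 0.083) and Runx3 (-0.043 to 0.064). In the interaction the ranges were -0.10 to 0.085 for Tox, -0.11 to 0.85 for Tox2, -0.37 to 0.45 for Zeb2, -0.078 to 0.12 for Runx3 and -0.39 to 0.26 for Maf. No paired analysis was made, because the labels give no replicate numbers that GFP+ and GFP- or treated and non-treated libraries share. The codes alternate between GFP+ and GFP-, but the sources used here do not say whether neighboring codes came from the same mice, so a fit blocked on them was not run. Depth limits Tox2 and Zeb2 the most, whose counting error reached 18.9% and 18.3% in their lowest libraries.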
